A study of Mus musculus with 9 samples.

Results

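The proteasome is the protease that degrades ubiquitin-tagged proteins in the cytosol and nucleus. The 38 genes described here encode its constitutive form: the 14 subunits of the 20S core, the 6 ATPases and 11 other subunits of the 19S regulator, 3 chaperones of 19S assembly, and 4 accessory genes, Psme3, Psme4, Psmf1 and Pomp. They were chosen by gene symbol, not by their values, but with earlier results of these data known. They were 38 of the 46958 genes in the count table. All 38 were found and all 38 passed the filter on low counts, which left 14199 genes for testing.

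RNA was sequenced from cells isolated from mouse spleen with beads against CD138, a plasma cell surface protein, with a stated purity of > 80%. One spleen gave 1 library, so the 9 libraries stand for 9 mice. The mice were 3 months old, not immunized and of a mixed C57/BL6x129/SVxBALB/c background, with 3 each of the genotypes WT, DH-LMP2A and kFRA. The series concerns light chain deposition disease (LCDD) and asks whether its monoclonal free light chain is toxic to the plasma cells that make it. The genotype label of the kFRA mice reads kFRA (LCDD), which ties this genotype to the disease. The labels give no further description of the alleles, of what drives them, or of whether kFRA mice also carry the DH-LMP2A allele. LMP2A is a membrane protein of Epstein-Barr virus that can stand in for B cell receptor signals. Heavy-chain constant-region genes took 1.09 to 1.16% of all counts in DH-LMP2A, 0.883 to 0.968% in kFRA and 21.9 to 27.1% in WT.

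In the constitutive proteasome, rings of alpha subunits form the gate of the 20S barrel and rings of beta subunits form its chamber, where Psmb5, Psmb6 and Psmb7 cut after different kinds of residues. The 19S regulator binds ubiquitin chains, removes them, and unfolds the substrate with its ATPases. Plasma cells secrete immunoglobulin at a high rate, and misfolded chains leave the endoplasmic reticulum to be degraded by the proteasome, which is why this cell type is known for its sensitivity to proteasome inhibitors.

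When proteasome activity is low, the transcription factor encoded by Nfe2l1 is known to raise many subunit genes together through antioxidant response elements (ARE). A core of this element, TGACNNNGC on either strand, was searched from 250 bases before to 50 after the start site in RefSeq promoters of build GRCm38.p6, where 32 of the 38 genes had an entry. It was present in 6 of the 32 (18.8%), against 14% of the 27025 genes in that table, a similar share. These 6 stretches are shown because Psmb5 and Psme4, which stand at opposite ends of the variation between libraries described below, are both among them. Each is written 5′ to 3′ on the strand of its gene, the capitals mark the motif, and coordinates are GRCm38.
Psmb5, chr14:54618018-54618058, minus strand: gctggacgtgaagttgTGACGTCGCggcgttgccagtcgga
Psmb6, chr11:70525332-70525372, plus strand: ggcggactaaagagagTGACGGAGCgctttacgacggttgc
Psmd9, chr5:123228143-123228183, plus strand: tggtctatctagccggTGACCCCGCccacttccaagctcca
Psmc6, chr14:45329581-45329621, plus strand: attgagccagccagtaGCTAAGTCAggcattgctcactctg
Psmd12, chr11:107479278-107479305, plus strand: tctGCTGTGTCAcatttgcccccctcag
Psme4, chr11:30771752-30771792, plus strand: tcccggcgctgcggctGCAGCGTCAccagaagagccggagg
The motif began 47 bases before the RefSeq start in Psmb5, 9 in Psmb6, 31 in Psmd9, 227 in Psmc6, 247 in Psmd12 and 7 in Psme4. These starts can differ from the gene spans of the count table. The stretches of Psmd9 and Psme4 lie inside those spans, which begin at chr5:123169413 and chr11:30771726. The letters CCAAT or ATTGG, the core of the CCAAT box, were in 12 of the 32 promoters (37.5%) against 41.1% of all genes in the table, and no promoter of the 32 held both motifs, so no matches overlapped. A match is a description of the sequence only.

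Total counts per library were between 15449026 and 21558128, and the lowest count of any of the 38 genes in a library was 172. Levels are given in CPM, the count relative to the library's total, after TMM scaling (trimmed mean of M-values), which sets libraries on a common scale from the bulk of the genes. The scaling matters here, because immunoglobulin genes took 27.3 to 32.5% of counts in DH-LMP2A, 29.21 to 45.36% in kFRA and 43.57 to 55.41% in WT. The labelled cell type was checked with 8 plasma cell markers, all of which were above 1 CPM in every library. Their summed level was 34150 to 47160 CPM in DH-LMP2A, 20400 to 32060 in kFRA and 18890 to 24140 in WT. Most of this sum was Jchain, with means of 30970, 21120 and 17830 CPM in the same order. The plasma cell markers did not all go one way. Against WT, edgeR called 3 higher and 1 lower in DH-LMP2A, and 2 higher and 1 lower in kFRA. The lower one was Tnfrsf17 both times, with log2 fold changes of -1.16 and -1.69. Markers of other spleen cells were present too. The 8 myeloid markers summed to 643.8 to 1930, 1193 to 1846 and 2396 to 4012 CPM in the same order, and the 8 erythroid markers to 2566 to 13640, 1167 to 2807 and 39.3 to 341.4 CPM. The 8 B cell markers summed to 297.6 to 475.7, 136.1 to 192.1 and 295.4 to 594.6 CPM, the 8 T cell markers to 74.85 to 120.8, 45.55 to 68.81 and 43.5 to 96.13 CPM, and none of the marker genes was at 0 in all libraries of a genotype. These sums hide single genes. Of the T cell markers edgeR called only Cd8b1, with means of 38.76, 13.26 and 0.7337 CPM in the same order. In kFRA against DH-LMP2A, 4 myeloid markers had log2 fold changes above 0 and 4 below, down to -4.1 for S100a8. The B cell markers did not go one way: between DH-LMP2A and WT, edgeR called Ms4a1 and Cr2 higher and Cd22 and Ciita lower in DH-LMP2A, and the median log2 fold change of the 8 was -0.91. In such bulk samples fewer cells of a type and less RNA per cell cannot be told apart.

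One library stood apart from the others of its genotype. In kFRA replicate 2 the 8 markers of cycling cells summed to 640.3 CPM, against 204.4 and 245.4 in kFRA replicates 1 and 3, and immunoglobulin genes took 29.21% of counts, against 44.04 and 45.36%. The cycling sums were 490.6 to 723 CPM in DH-LMP2A and 361.5 to 478.5 in WT, so that kFRA replicate 2 lay within the DH-LMP2A range and kFRA replicates 1 and 3 were the lowest of the 9 libraries. Outside the immunoglobulin genes, 1679 of 13942 genes lay at least 2-fold from the mean of the other kFRA libraries, where the count for any other library within its genotype was 470 to 1361. The results below are therefore given with and without this library.

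The summed level of the 38 genes was 2369, 2306 and 2331 CPM in the DH-LMP2A libraries, 2775, 2186 and 2780 in kFRA and 2202, 2219 and 2564 in WT. The genotypes overlapped, the lowest sum of all being that of kFRA replicate 2, and the means were 2335 ± 31.4, 2580 ± 342 and 2328 ± 205 CPM (SD, n = 3). As shares of all counts without scaling, the same genes took 0.2451 to 0.2712% in DH-LMP2A, 0.2487 to 0.2671% in kFRA and 0.1997 to 0.2126% in WT, so that on this scale WT lay below the others. As shares of the counts outside immunoglobulin genes they took 0.363 to 0.373%, 0.3773 to 0.4694% and 0.3767 to 0.4479%, where DH-LMP2A lay lowest. The place of a genotype in this order thus changed with what the counts were divided by.

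**Figure D1:**
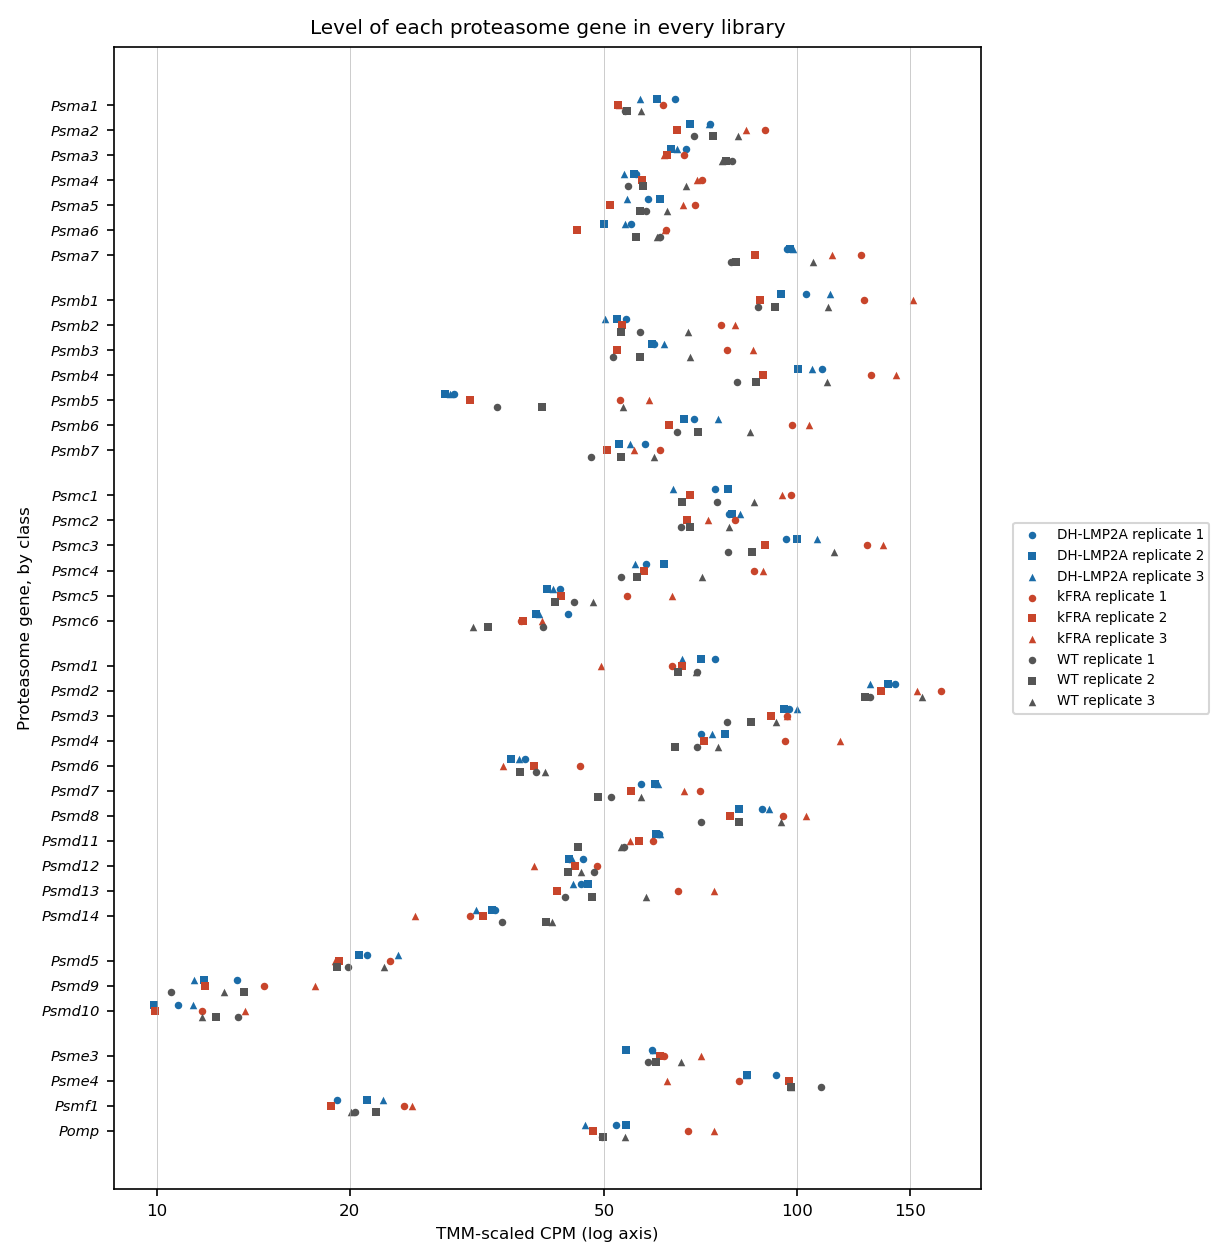
Level of each of the 38 genes in every library, in TMM-scaled CPM on a log axis, grouped by class (20S alpha, 20S beta, 19S ATPase, other 19S, assembly chaperones, accessory genes); colour gives the genotype and marker shape the replicate. Most genes lie between 30 and 150 CPM with the genotypes interleaved, and the chaperones Psmd5, Psmd9 and Psmd10 and the inhibitor Psmf1 lie lowest.

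Compared per kilobase of merged exon length, the highest levels over all libraries were those of core subunits: 103.7 CPM per kb for Psmb1 and 79.38 for Psma2, followed by 56.45 for the 19S subunit Psmd8. The catalytic subunits Psmb5 and Psmb6 had 45.4 and 41.28 CPM per kb and the trypsin-like subunit Psmb7 had 16.01. The lowest were the assembly chaperones Psmd9 and Psmd5, at 1.805 and 2.901 CPM per kb, and the inhibitor Psmf1, at 3.336. Merged length counts every annotated exon, so the level per kb of a gene with long, rarely used exons is understated. The level per kb summed over the 19S subunits was divided by that summed over the 20S subunits, which are fewer genes. This ratio was 0.752, 0.788 and 0.743 in DH-LMP2A, 0.709, 0.795 and 0.691 in kFRA and 0.742, 0.707 and 0.703 in WT. Every DH-LMP2A library was just above every WT library, and the kFRA libraries overlapped both, an order that was not tested.

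No gene of the 38 differed in any of the 3 comparisons of genotypes by edgeR's quasi-likelihood test at an adjusted p under 0.05 (Benjamini-Hochberg over the 14199 genes). The background was 5.02% of all genes called between kFRA and DH-LMP2A, 17.8% between kFRA and WT and 12.4% between DH-LMP2A and WT. At an unadjusted p under 0.05 the 38 genes numbered 3, 4 and 3 in the same order, against 22.4, 35 and 26.6% of all genes tested. DESeq2 called 0, 1 and 0 of the 38, the 1 being Psma3, where it called 9.9, 24.8 and 17.8% of all genes. Among 6862 other genes with mean levels in the range of these 38 (11.7 to 142.5 CPM), edgeR called 4.3, 17.1 and 10.7%. Any 2 of the comparisons share a genotype's libraries, so they are not independent of each other.

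The intervals bound the size of a difference that these libraries leave possible. The 95% intervals of the log2 fold changes had half-widths of 0.22 to 0.54, with a median of 0.32. They lay wholly within 1 log2 unit (2-fold) of 0 for 37 of the 38 genes in kFRA against DH-LMP2A, all 38 in kFRA against WT, and 37 in DH-LMP2A against WT. The exception in both cases was Psmb5. Spread between mice of a genotype was modest: the median SD of log2 levels within genotypes was 0.157 for the 38 genes and 0.213 for the 6862 others of like level. The p-values above set each difference against a spread between mice that all 3 genotypes share, estimated per gene with information from other genes.

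**Figure D2:**
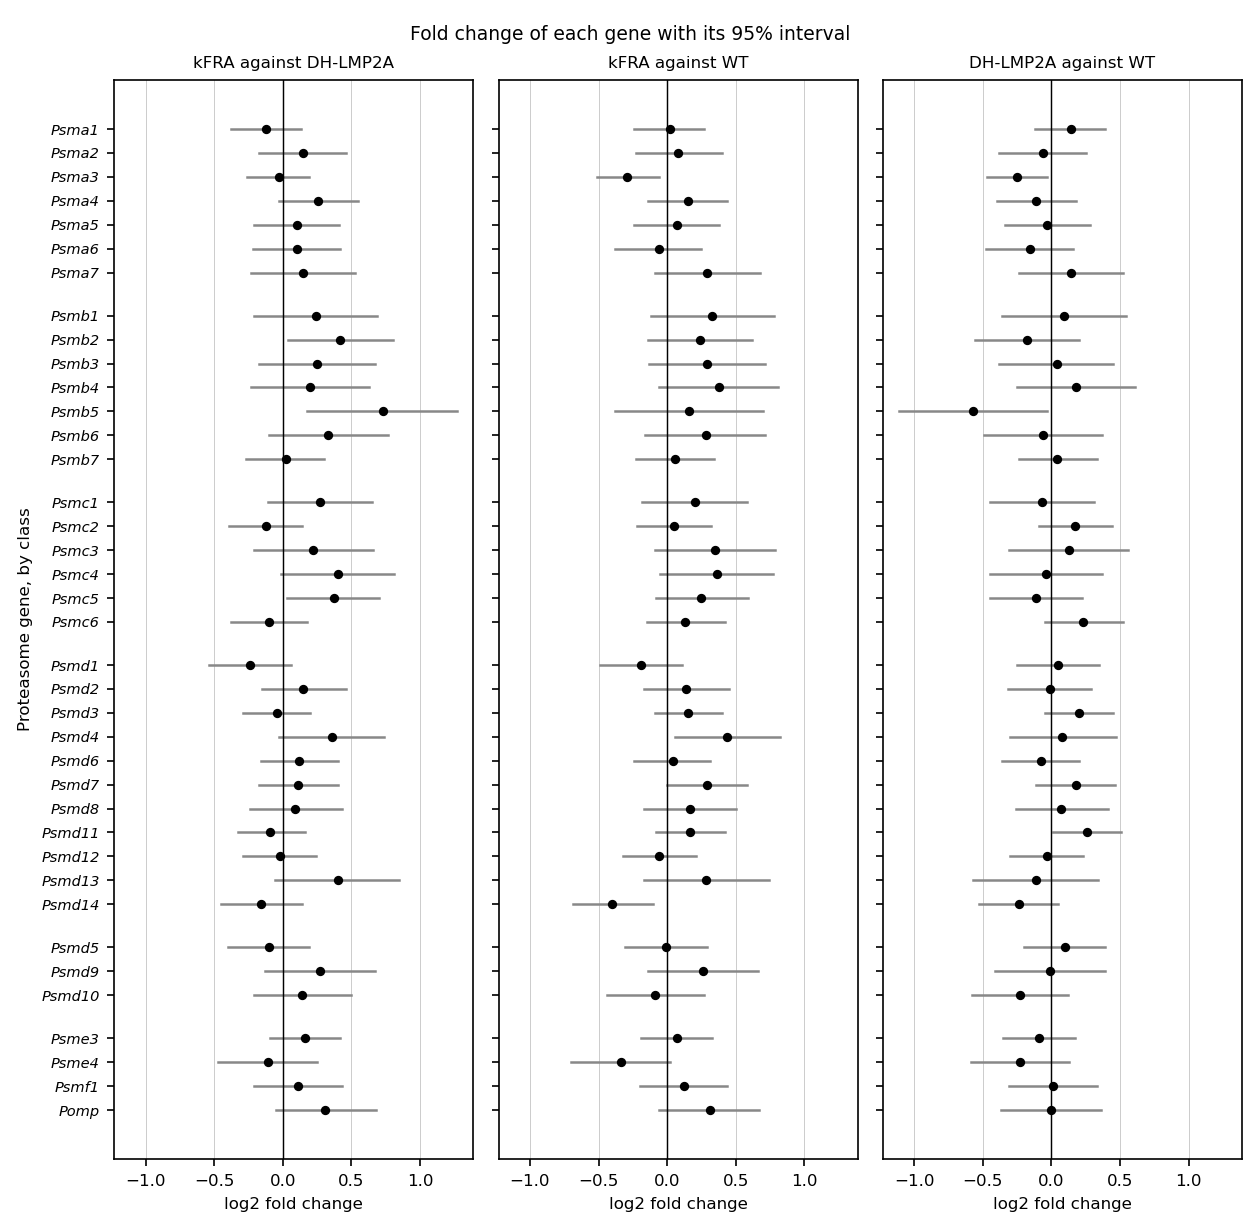
Log2 fold change (x axis) of each of the 38 genes (rows, by class) with its 95% interval in kFRA against DH-LMP2A, kFRA against WT and DH-LMP2A against WT; points are estimates of edgeR's quasi-likelihood fit and bars the intervals. All estimates of the other 37 genes lie within 0.5 of 0, and Psmb5 has the widest intervals.

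In kFRA against DH-LMP2A, 27 of the 38 estimates were above 0 and 11 below, with a median log2 fold change of 0.15, where 49.3% of all genes were above 0 and their median was 0.00. By class, the median was 0.25 for the 20S beta subunits and for the 19S ATPases, 0.10 for the alpha subunits, 0.09 for the other 19S subunits, 0.14 for the chaperones and 0.14 for the accessory genes. The estimates ran from -0.24 for Psmd1, a large scaffold subunit of the 19S, to 0.73 for Psmb5. The libraries did not overlap for 6 genes, against 25.6% of all genes tested. Higher in every kFRA library were 4, Psma4, Psmb5, Psmc5 and Psme3 (11.6% of all genes), and lower were 2, Psmd1 and Psmd11 (13.9% of all genes). Scaled by library size alone, without TMM, the median of the 38 was -0.01 and that of all genes -0.14. With a covariate for the cycling-cell markers the median was -0.03, with 16 of the 38 above 0, and with one for B cell markers it was 0.01, with 21 above 0. With these covariates 2.17 and 1.73% of all genes were called, against 5.02% without. The B cell marker sums of kFRA and DH-LMP2A did not overlap, so that covariate cannot be cleanly separated from genotype.

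The kFRA and WT libraries gave a similar picture, with 30 estimates above 0 and 8 below and a median log2 fold change of 0.15, where 47.3% of all genes were above 0 and their median was -0.04. The class medians were 0.28 for beta subunits, 0.23 for ATPases, 0.15 for other 19S subunits, 0.07 for alpha subunits, -0.01 for the chaperones and 0.10 for the accessory genes. The lowest estimate was -0.40 for Psmd14, the deubiquitinase of the 19S, and the highest 0.44 for Psmd4, one of its ubiquitin receptors. The libraries did not overlap for 4 genes, against 34.3% of all genes tested. Higher in every kFRA library was 1, Psmd11 (14.2% of all genes), and lower were 3, Psma3, Psmd14 and Psme4 (20.2% of all genes). By library size alone 13 of the 38 passed the threshold in this comparison, all higher in kFRA (16.6% of all genes), with a median of 0.34 where that of all genes was 0.17. With a B cell marker covariate the median was -0.11, with 13 of the 38 above 0. The B cell marker sums of kFRA and WT did not overlap, so this covariate cannot be cleanly separated from genotype. With it 2.13% of all genes were called, against 17.8% without.

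Between DH-LMP2A and WT, whose heavy-chain shares are given above, 17 estimates were above 0 and 21 below, where 49.1% of all genes were above 0. The median was -0.01, as it was for all genes. Each class median was between -0.06 and 0.05. The estimates ran from -0.57 for Psmb5 to 0.26 for Psmd11, a lid subunit of the 19S. The libraries did not overlap for 8 genes, against 36.6% of all genes tested. Higher in every DH-LMP2A library were 2, Psmd3 and Psmd11 (17.5% of all genes), and lower were 6, Psma3, Psma6, Psmb5, Psmd14, Psmd10 and Psme4 (19.1% of all genes). By library size alone 9 of the 38 passed the threshold, all higher in DH-LMP2A (14.5% of all genes), and the median was 0.34 with that of all genes at 0.33. With a B cell marker covariate the median was -0.11, with 9 of the 38 above 0, and with a cycling-cell marker covariate it was 0.06, with 25 above 0. With these covariates 5.15 and 12.2% of all genes were called, against 12.4% without.

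Psmb5 encodes the chymotrypsin-like subunit, the main target of proteasome inhibitors used against myeloma. It lies on chr14:54614120-54617995. Its level was 29.1, 28.2 and 28.7 CPM in the DH-LMP2A libraries, 52.8, 30.9 and 58.7 in kFRA and 34.0, 40.0 and 53.5 in WT. The DH-LMP2A libraries lay close together below all others, while kFRA replicate 2 lay just above them and far below its own group. Without TMM the DH-LMP2A libraries, at 30.2 to 33.3 CPM, overlapped WT, at 32.9 to 41.7, but not kFRA, at 37.7 to 52.5. The means were 28.7 ± 0.478, 47.5 ± 14.7 and 42.5 ± 9.97 CPM (SD, n = 3). The log2 fold change was 0.73 (SE 0.242, interval 0.18 to 1.27) for kFRA against DH-LMP2A, with an adjusted p of 0.128 by edgeR's quasi-likelihood test. It was -0.57 (SE 0.241, edgeR adjusted p = 0.169) for DH-LMP2A against WT and 0.16 (SE 0.24, edgeR adjusted p = 0.657) for kFRA against WT.

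The position of Psmb5 relative to the rest of the core does not depend on how libraries are scaled. Its level per kb divided by the mean of the 20S subunits was 0.803, 0.817 and 0.796 in DH-LMP2A, 1.16, 0.958 and 1.24 in kFRA and 1.01, 1.14 and 1.29 in WT. All DH-LMP2A libraries were again below all others, a comparison made after the values were seen and not tested. Of the 38 genes Psmb5 differed most between libraries, by 2.08-fold from the lowest to the highest, where Psma1 differed least, by 1.23-fold. Psmb5 has a processed pseudogene of near-identical sequence, Gm3375, whose counts were not analysed here.

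Psmb6 encodes the caspase-like subunit and lies on chr11:70525367-70527858. It had 68.9, 66.5 and 75.1 CPM in DH-LMP2A, 98.2, 63.0 and 104 in kFRA and 64.9, 70.0 and 84.5 in WT. For this gene kFRA replicates 1 and 3 were the highest of the 9 libraries and kFRA replicate 2 was the lowest. Without TMM kFRA replicates 1 and 3 were still the highest, at 92.95 and 93.4 CPM, but kFRA replicate 2, at 77.0, lay just below DH-LMP2A, at 77.5 to 79.0, and above WT, at 62.6 to 65.8. On the log2 scale kFRA differed by 0.33 (SE 0.193, edgeR adjusted p = 0.326) against DH-LMP2A and 0.28 (edgeR adjusted p = 0.328) against WT.

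Psmb7, on chr2:38588036-38644087, encodes the trypsin-like subunit. Its level was 57.9, 52.6 and 54.8 CPM in DH-LMP2A, 61.0, 50.4 and 55.7 in kFRA and 47.7, 53.1 and 59.8 in WT. The genotypes overlapped, and the log2 fold changes were 0.02, 0.06 and 0.04 for kFRA against DH-LMP2A, kFRA against WT and DH-LMP2A against WT, the edgeR adjusted p being 0.957, 0.766 and 0.885. Without TMM every WT library, at 46.1 to 48.3 CPM, lay below every DH-LMP2A library, at 57.6 to 66.3, and every kFRA library, at 49.8 to 61.6. Its exons overlap those of Nek6 on the opposite strand, and the strand setting of the counting is not given in the sources used here.

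**Figure D3:**
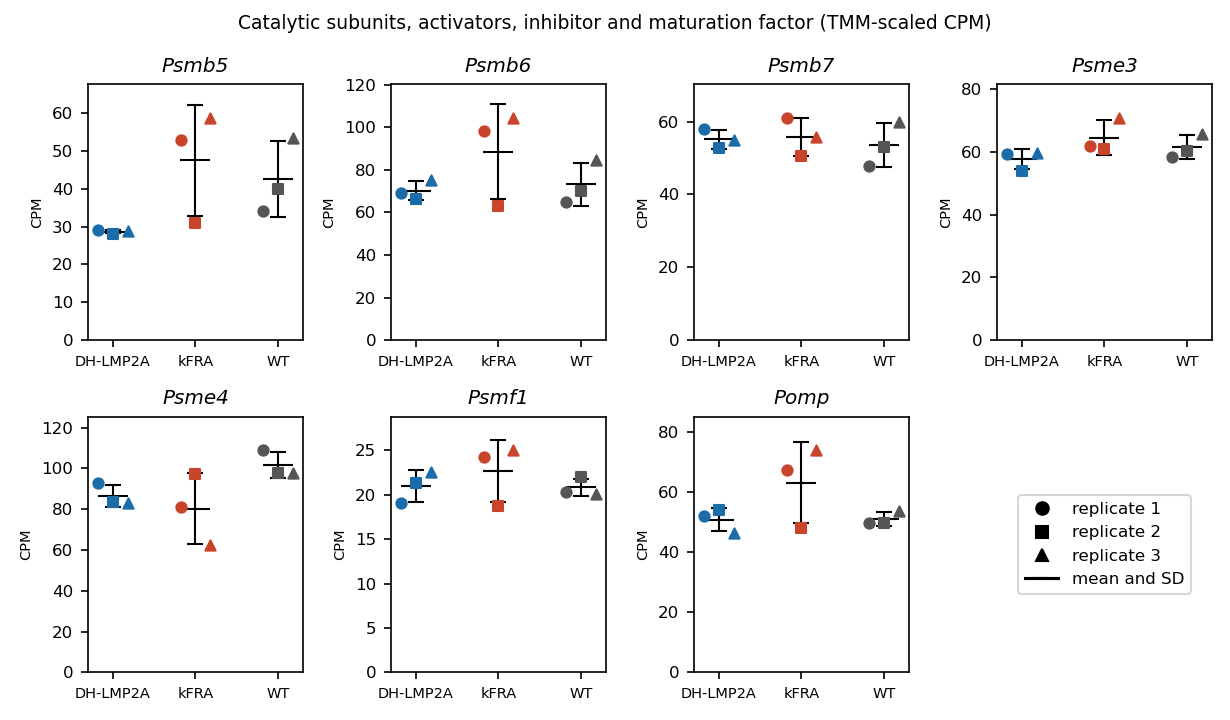
TMM-scaled CPM (y axis, from 0) of the catalytic subunits Psmb5, Psmb6 and Psmb7, the activators Psme3 and Psme4, the inhibitor Psmf1 and the maturation factor Pomp in each library, by genotype; lines and bars are the mean and SD of 3 mice. In Psmb5, Psmb6 and Pomp, kFRA replicates 1 and 3 lie above kFRA replicate 2, and in Psme4 kFRA replicate 2 is the highest of its group.

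Among the other beta subunits, which build the chamber around the catalytic sites, Psmb2 had the next largest estimate after Psmb5 in kFRA against DH-LMP2A, at 0.42 (log2, SE 0.168, edgeR adjusted p = 0.187). Its libraries read 54.0, 52.3 and 50.1 CPM in DH-LMP2A, 75.9, 53.2 and 80.1 in kFRA and 56.7, 53.0 and 67.6 in WT. As with Psmb6, 2 of the 3 kFRA libraries exceeded all others. Psmb4 had the highest estimate of the class against WT, 0.38.

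The 7 alpha subunits, which gate entry to the chamber, had estimates from -0.12 (Psma1) to 0.26 (Psma4) in kFRA against DH-LMP2A and from -0.29 (Psma3) to 0.29 (Psma7) in kFRA against WT. Psma3, named here after its values were seen, had 67.1, 63.6 and 64.9 CPM in DH-LMP2A, 66.6, 62.7 and 61.9 in kFRA and 79.0, 77.5 and 76.4 in WT. All 3 WT libraries were above all 6 others, and its SD of log2 levels within genotypes, 0.0418, was the lowest of the 38 genes. Its estimate was -0.29 (log2, SE 0.0991, edgeR adjusted p = 0.0751) for kFRA against WT and -0.25 (edgeR adjusted p = 0.138) for DH-LMP2A against WT. DESeq2 gave -0.25 for kFRA against WT with an adjusted p of 0.0485. On library size alone Psma3 had 76.8, 74.1 and 68.2 CPM in DH-LMP2A, 63.0, 76.6 and 55.3 in kFRA and 76.2, 70.5 and 59.5 in WT, so the order of the genotypes did not hold on that scale. The processed pseudogene Gm13835 is identical to Psma3 over 665 bases. Its counts, added over all libraries, equalled 4.23% of those of Psma3.

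The 6 ATPases of the 19S, which unfold substrates and open the gate, had estimates from -0.12 (Psmc2) to 0.40 (Psmc4) in kFRA against DH-LMP2A and from 0.05 (Psmc2) to 0.36 (Psmc4) in kFRA against WT. Psmc5 had 42.6, 40.6 and 41.5 CPM in DH-LMP2A, 54.3, 42.8 and 63.7 in kFRA and 44.8, 41.9 and 48.0 in WT. Every kFRA library was above every DH-LMP2A library, kFRA replicate 2 by the least, and the estimate was 0.37 (log2, SE 0.149, edgeR adjusted p = 0.193).

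The 11 other 19S subunits bind ubiquitin chains, remove them or hold the complex together. Psmd14, which removes the chains, had 33.8, 33.4 and 31.5 CPM in DH-LMP2A, 30.8, 32.4 and 25.3 in kFRA and 34.5, 40.5 and 41.5 in WT. Every WT library was above every other library, and kFRA replicate 3 was the lowest. Without TMM the WT libraries, at 32.3 to 36.8 CPM, lay among the others, at 22.6 to 39.5. For kFRA against WT its log2 fold change was -0.40 (SE 0.131) with the lowest adjusted p of the 38 genes in any comparison, 0.0648 by edgeR's quasi-likelihood test. Psmd4, a ubiquitin receptor, had 70.9, 77.3 and 73.6 CPM in DH-LMP2A, 95.8, 71.6 and 117 in kFRA and 69.6, 64.5 and 75.2 in WT. It too had 2 high kFRA libraries and kFRA replicate 2 among the others, at 0.44 (log2, SE 0.17, edgeR adjusted p = 0.101) against WT. Psmd11 was nearly level in DH-LMP2A, at 60.8, 60.1 and 61.1 CPM, with 59.6, 56.7 and 54.9 in kFRA and 53.6, 45.5 and 53.0 in WT. WT lay lowest in this gene, and the estimate was 0.26 (SE 0.109, edgeR adjusted p = 0.165) for DH-LMP2A against WT. A transcript of near-identical sequence, A730017L22Rik, held counts equal to 6.66% of those of Psmd11, added over all libraries.

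The chaperones Psmd5, Psmd9 and Psmd10, which help to assemble the ATPase ring and leave before the regulator is complete, had 9.88 to 23.8 CPM over all libraries. Their estimates were -0.10 (Psmd5) to 0.27 (Psmd9) in kFRA against DH-LMP2A, -0.09 (Psmd10) to 0.26 (Psmd9) in kFRA against WT and -0.23 (Psmd10) to 0.10 (Psmd5) in DH-LMP2A against WT. For each of them the libraries overlapped in kFRA against both other genotypes.

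Pomp, on chr5:147860461-147876456, encodes the chaperone of core assembly that is degraded when a new core matures. It had 52.2, 54.0 and 46.5 CPM in DH-LMP2A, 67.5, 48.0 and 74.0 in kFRA and 49.6, 49.7 and 53.8 in WT. DH-LMP2A and WT had near-equal means on this scale, 50.9 ± 3.89 and 51.1 ± 2.39 CPM (SD, n = 3), and 2 of the 3 kFRA libraries were above both. Its estimate was 0.31 (log2, SE 0.162, edgeR adjusted p = 0.285) against DH-LMP2A and 0.31 (edgeR adjusted p = 0.207) against WT. Without TMM every DH-LMP2A library, at 48.9 to 62.97 CPM, was above every WT library, at 41.9 to 47.9, and DH-LMP2A overlapped kFRA, at 58.6 to 66.2.

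Psme4, on chr11:30771726-30880361, encodes the activator PA200, a large nuclear cap of the core that works without ubiquitin. Its level was 92.7, 83.5 and 83.2 CPM in DH-LMP2A, 81.1, 97.2 and 62.7 in kFRA and 109, 97.8 and 98.0 in WT. The kFRA libraries were here in the reverse order of Psmb5, kFRA replicate 2 being the highest, and all were below the WT libraries. Without TMM the kFRA libraries, at 56.1 to 119 CPM, spanned the WT libraries, at 76.3 to 105. The estimate was -0.34 (log2, SE 0.161, edgeR adjusted p = 0.166) for kFRA against WT and -0.23 (edgeR adjusted p = 0.414) for DH-LMP2A against WT. Relative to the mean of the 20S subunits, Psme4 per kb was 0.266, 0.252 and 0.240 in DH-LMP2A, 0.185, 0.314 and 0.138 in kFRA and 0.335, 0.290 and 0.246 in WT. This ratio differed by more among the kFRA mice than between the means of the genotypes.

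Psme3, on chr11:101316213-101323537, encodes PA28 gamma, a nuclear activator. It had 59.3, 54.0 and 59.6 CPM in DH-LMP2A, 61.8, 61.0 and 70.9 in kFRA and 58.4, 60.2 and 65.8 in WT, and kFRA replicate 2 was here close to kFRA replicate 1. The log2 fold change for kFRA against DH-LMP2A was 0.16 (edgeR adjusted p = 0.42). Psmf1, on chr2:151715812-151744186, encodes the proteasome inhibitor PI31 and had 19.1, 21.3 and 22.6 CPM, 24.3, 18.7 and 25.0 CPM and 20.36, 21.98 and 20.13 CPM in the same order. Its genotypes overlapped, with log2 fold changes of 0.11, 0.12 and 0.01 (edgeR adjusted p = 0.676, 0.562 and 0.976).

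The largest differences within a genotype were those of kFRA replicate 2. It was the lowest of the 3 kFRA libraries for 29 of the 38 genes, where this was so for 37.7% of all genes tested. Against the mean of kFRA replicates 1 and 3 it was lower for 34 of the 38, with a median log2 difference of -0.37, where the median of all genes was 0.05. The differences ran from -0.85 for Psmb5 to 0.45 for Psme4. The mean of the other kFRA libraries exceeded kFRA replicate 2 by 1.81-fold for Psmb5, 1.66-fold for Psmd13, 1.61-fold for Psmb6 and 1.6-fold for Psmb1. The scaling matters for this pattern: kFRA replicate 2 was the lowest of its genotype for 33 of the 38 genes with DESeq2 size factors and for 27 per count outside immunoglobulin genes, but for 13 on library size alone, where it was the highest for 18. Even on library size alone, Psmb5 had 49.97, 37.7 and 52.5 CPM and Psme4 76.7, 119 and 56.1 CPM in kFRA replicates 1, 2 and 3. The part in this difference of the cycling-cell markers and the immunoglobulin share, given above for this library, was not tested.

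**Figure D4:**
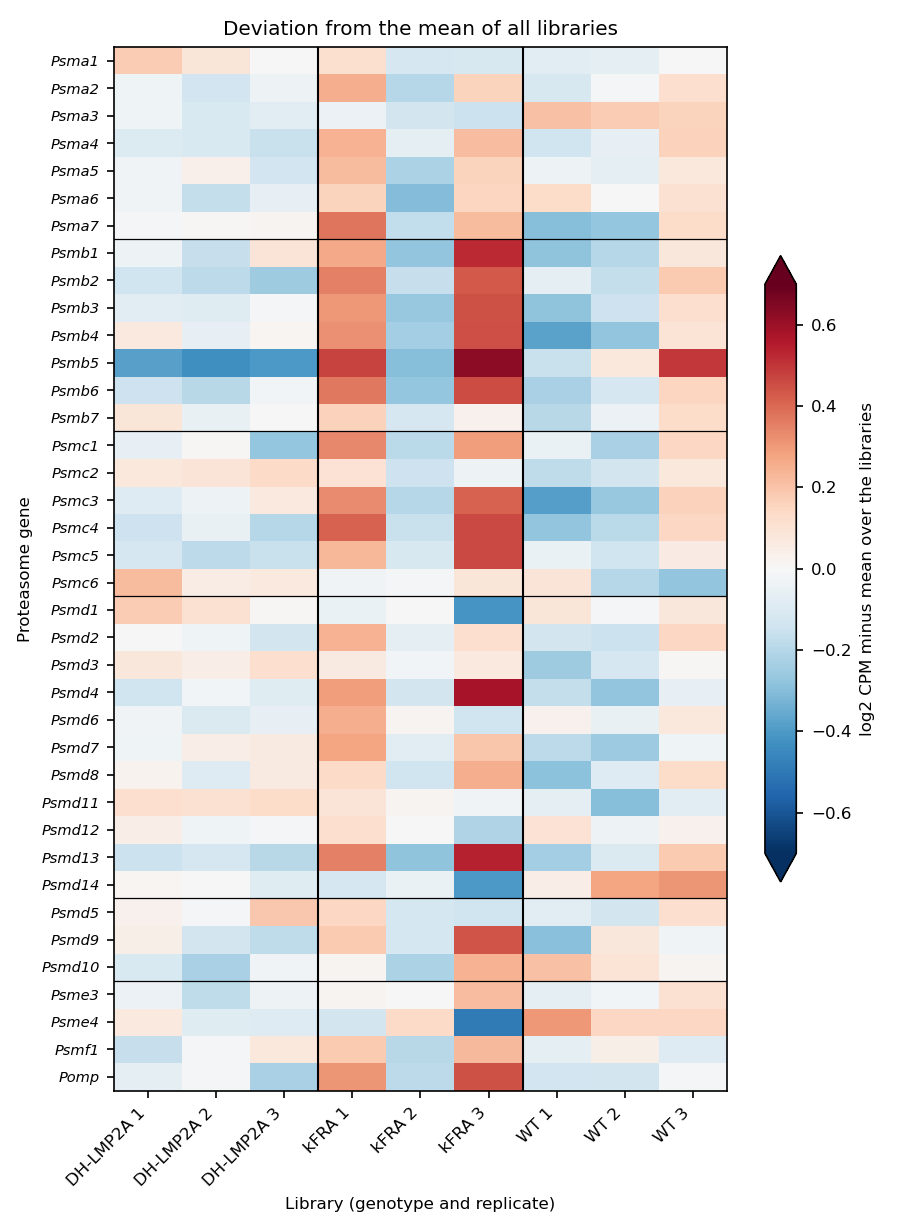
Deviation of the log2 level of each of the 38 genes (rows) from its mean over the 9 libraries (columns), in log2 units on the colour scale; black lines separate genotypes and classes. Red marks levels above the mean, which dominate kFRA replicates 1 and 3, with Psma3, Psmd1, Psmd14 and Psme4 below the mean in both.

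Leaving out kFRA replicate 2 changed the calls. It also left the kFRA group with the libraries lowest in cycling-cell markers, 204.4 and 245.4 CPM against 361.5 to 723 in the other genotypes, and the part of this in the calls was not tested. With 2 kFRA libraries left, edgeR's quasi-likelihood test called 11 of the 38 genes higher in kFRA than in DH-LMP2A and none lower, where it called 22.7% of 14518 genes in either direction and 11.7% higher. These were the core genes Psma4, Psmb2, Psmb3, Psmb5 and Psmb6, the ATPases Psmc1, Psmc4 and Psmc5, the 19S subunits Psmd4 and Psmd13, and Pomp. The log2 fold change of Psmb5 was then 1.02 (edgeR adjusted p = 0.00907), that of Psmb6 0.59 (edgeR adjusted p = 0.0214) and that of Pomp 0.54 (edgeR adjusted p = 0.0162). On library size alone and without this library, a setting chosen after seeing the data, 2 genes passed, against 21% of all genes. Psmb5 was higher (0.67, edgeR adjusted p = 0.0133) and Psmd1 lower. The library left out was the lowest in Psmb5 of the kFRA libraries on this scale too. The part of the scaling in the level of Psmb5 was not tested.

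In kFRA against WT without kFRA replicate 2, edgeR called 15 of the 38, against 38.8% of all genes. Higher in kFRA were 13 (18.8% of all genes), namely Psma7, Psmb1, Psmb2, Psmb3, Psmb4, Psmb6, Psmc3, Psmc4, Psmc5, Psmd4, Psmd7, Psmd13 and Pomp. Lower were 2 (20% of all genes), Psmd14 (-0.41, edgeR adjusted p = 0.044) and Psme4 (-0.44, edgeR adjusted p = 0.037). The share of the 38 called was close to that of all genes. Leaving out any other single library left the number called at 0 in each comparison it entered.

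The smaller counterpart in WT was replicate 3, which was the highest of the 3 WT libraries for 28 of the 38 genes, against 33.9% of all genes tested. Its median log2 difference from the other WT libraries was 0.19, from -0.22 for Psmc6 to 0.53 for Psmb5. Without TMM it was the highest for 9 of the 38 and the lowest for 22. Psmb5 had 32.9, 36.4 and 41.7 CPM on that scale in WT replicates 1, 2 and 3, so its order was kept.

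**Figure D5:**
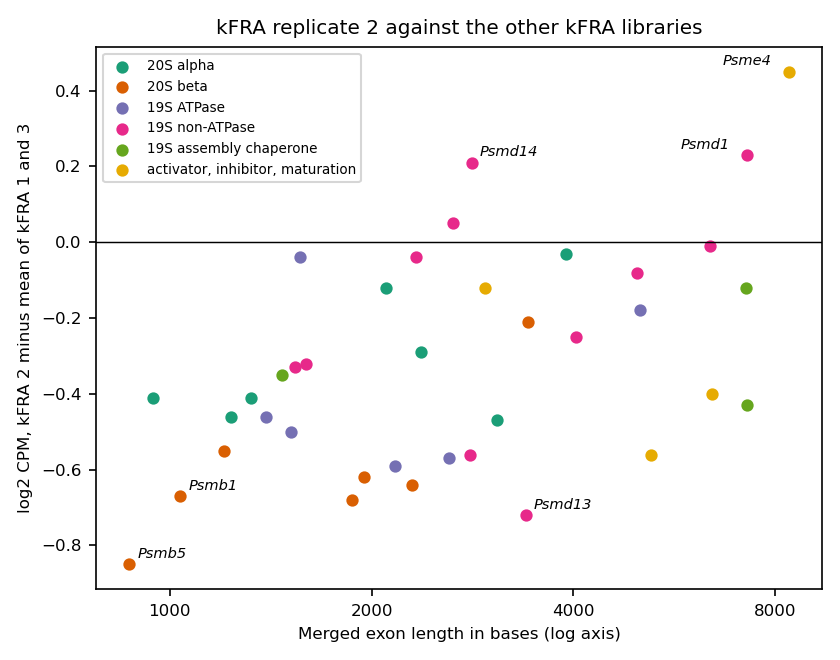
Log2 level in kFRA replicate 2 minus the mean of kFRA replicates 1 and 3 (y axis) against merged exon length in bases (x axis, log scale), 1 point for each of the 38 genes, coloured by class. Points below 0 are lower in kFRA replicate 2; Psmb5, the shortest gene, is lowest and Psme4, the longest, is highest.

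The levels of many of these genes varied together across libraries within genotypes. After each genotype's mean was removed, the correlation of log2 levels over the 9 libraries had a median of 0.57 over the 703 pairs of genes, with 380 pairs above 0.5 and 159 below 0. The libraries share their scaling factor and depth in every such pair, so these values describe the table only. With Psmb5, 12 of the 37 other genes correlated above 0.9, against 4.27% of 14161 other genes: the core subunits Psma2, Psma4, Psma7, Psmb1, Psmb2, Psmb3, Psmb4 and Psmb6, the ATPases Psmc3 and Psmc4, and Psmd8 and Psmd13. Below 0 were 6, namely Psma3, Psmc6, Psmd1, Psmd12, Psmd14 and Psme4, against 53.8% of other genes. The level of Psmb5 correlated at -0.97 with the libraries' TMM factors centred in the same way, that of Psmb6 at -0.99 and that of Psme4 at 0.80.

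Merged exon length, which need not be the length of a transcript, moved with these differences. The merged exon length ran from 871 bases for Psmb5 to 8382 for Psme4. Over the 38 genes the difference of kFRA replicate 2 from the other kFRA libraries correlated with log2 length at r = 0.52 (Spearman's rho 0.47), and over all 14199 genes at r = 0.27 (rho 0.36). For kFRA against DH-LMP2A the log2 fold change correlated with log2 length at r = -0.48 (rho -0.39) over the 38 genes. Over all genes the values were r = 0.10 (rho -0.21), and over 7547 genes of similar mean level r = 0.03 (rho -0.35). That set covers a wider range of levels than the 6862 genes above and leaves out the largest increases. In kFRA against WT the relation over the 38 genes was weaker (r = -0.26, rho -0.21), and in DH-LMP2A against WT it had the opposite sign (r = 0.27, rho 0.23). In kFRA against DH-LMP2A the median was 0.20 for the 19 shorter genes and 0.02 for the 19 longer ones. Genes are not independent replicates, and the part of length in the differences was not tested.

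The immunoproteasome replaces the catalytic subunits of the constitutive core by Psmb8, Psmb9 and Psmb10, and its activator PA28 consists of Psme1 and Psme2. None of these 5 genes passed the threshold in any comparison by edgeR's quasi-likelihood test. All 5 estimates were above 0 in kFRA against DH-LMP2A, with a median of 0.48, and all 5 below 0 in DH-LMP2A against WT, with a median of -0.38. Psme1 came nearest, at 0.52 (SE 0.145, edgeR adjusted p = 0.0762) and -0.50 (edgeR adjusted p = 0.0521). Per kb, Psmb8 relative to its constitutive counterpart Psmb5 stood at 1.85, 1.75 and 1.91 in DH-LMP2A, 1.75, 1.79 and 1.49 in kFRA and 1.75, 1.49 and 1.72 in WT. Unlike the level of Psmb5 itself, this ratio was near the same value in kFRA replicates 1 and 2.

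Psmb9 relative to Psmb6 stood at 0.759, 0.804 and 0.780 per kb in DH-LMP2A, 0.856, 0.909 and 0.846 in kFRA and 0.922, 0.748 and 0.878 in WT. Psmb10 relative to Psmb7 stood at 2.18, 2.51 and 2.63 in DH-LMP2A, 3.21, 2.59 and 3.31 in kFRA and 3.29, 3.33 and 3.18 in WT. The DH-LMP2A libraries were below every kFRA library in the first ratio and below every WT library in the second, both ratios being free of the scaling between libraries. These orders were not tested.

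Of 18 tested genes for assembly factors and proteins that act at the proteasome, 1 passed in kFRA against DH-LMP2A, 2 in kFRA against WT and none in DH-LMP2A against WT. Rad23b encodes a shuttle that brings ubiquitinated proteins to the proteasome. It had 140.1, 122.4 and 121.6 CPM in DH-LMP2A, 76.7, 98.7 and 73.3 in kFRA and 99.0, 114.3 and 123.9 in WT, and was lower in every kFRA library than in any other. Against DH-LMP2A its estimate was -0.63 (log2, SE 0.152, edgeR adjusted p = 0.0487). This call was lost in 16 of 21 alternatives, including the leaving out of any 1 library other than kFRA replicate 2, with an adjusted p of up to 0.397 (edgeR).

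Adrm1 encodes a ubiquitin receptor of the 19S that is not among the 38 genes. It had 56.1, 56.7 and 56.5 CPM in DH-LMP2A, 73.2, 57.7 and 77.7 in kFRA and 46.5, 50.9 and 55.3 in WT. It was higher in kFRA than in WT at an estimate of 0.45 (log2, SE 0.136, edgeR adjusted p = 0.0491), with kFRA replicate 2 again the lowest of its group. The call was lost in 13 of 21 alternatives, with an adjusted p of up to 0.886 (edgeR). Ube3c, a ubiquitin ligase that works at the proteasome, had 33.3, 33.3 and 31.0 CPM in DH-LMP2A, 21.1, 28.2 and 20.8 in kFRA and 34.2, 33.8 and 34.0 in WT. It was lower in every kFRA library, at an estimate of -0.54 (log2, SE 0.136, edgeR adjusted p = 0.0254) against WT, with kFRA replicate 2 the nearest to the other genotypes. The call was lost in 10 of 21 alternatives, with an adjusted p of up to 0.683 (edgeR). Both calls held without kFRA replicate 2 and were lost without any other 1 library.

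Of 13 genes for regulators, ubiquitin and delivery to the proteasome, only Ddi2 passed, and in 1 comparison. Ddi2 encodes the protease that cuts the Nfe2l1 product into its active form. It had 65.3, 70.5 and 78.7 CPM in DH-LMP2A, 88.4, 102 and 73.8 in kFRA and 103.5, 123.6 and 130.2 in WT. Every DH-LMP2A library was below every WT library, and the estimate was -0.74 (log2, SE 0.156, edgeR adjusted p = 0.0146). The call was lost in 5 of 18 alternatives, among them the leaving out of DH-LMP2A replicate 1 (edgeR adjusted p = 0.0631) or of WT replicate 2 (edgeR adjusted p = 0.0574) and library size alone (-0.39, edgeR adjusted p = 0.218). Nfe2l1 itself had 125.8, 124.6 and 139 CPM, 142.5, 146.3 and 153.9 CPM and 140, 143.1 and 162.5 CPM in DH-LMP2A, kFRA and WT. Its log2 fold changes were 0.19 for kFRA against DH-LMP2A, -0.01 for kFRA against WT and -0.19 for DH-LMP2A against WT (edgeR adjusted p = 0.375, 0.963 and 0.343).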

How the data were processed

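Polyadenylated RNA of CD138+ spleen cells from 9 mice was sequenced as paired reads after a strand-specific library kit, per the labels' protocols. The authors deposited 1 table of raw counts per gene. The submitters' processing notes name STAR 2.4.0a, featureCounts (Subread 1.5.0-p3), DESeq2 and the build GRCm38 (mm10). The strand setting, the treatment of reads with several places and the annotation release are not given in the sources used here.

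The counts were analysed with edgeR 4.0.16 under R 4.3.3: filterByExpr, TMM scaling, a quasi-likelihood fit with 1 coefficient per genotype to all 9 libraries, 2-sided F tests of 3 contrasts, and Benjamini-Hochberg adjustment over 14199 genes at 0.05. Total counts ranged from 15449026 to 21558128. Replicates were checked by chi-square, which per degree of freedom was 18.1 to 171 within genotypes, so none was counted as a duplicate. Intervals are 95% intervals from the fit's standard error. Alternatives were other scalings and filters, marker covariates, a replicate block, DESeq2 1.42.0, leaving out each library, and, chosen after seeing the data, other scalings without kFRA replicate 2. The scripts were tested on simulated data. The members and lists were chosen with earlier results of these data known. The genes named with all values were the catalytic subunits, Psme3, Psme4, Psmf1 and Pomp, any gene of the proteasome pathway lists past the threshold, and Nfe2l1. The other genes were given by class, with the highest and lowest estimates. Psma3, Psmb2, Psmc5, Psmd4, Psmd11 and Psmd14 were given in full after their values were seen.

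Spans are those of the deposited table, identical to GENCODE M21 for 30 of the 38 genes. Exons of 9 of the 38 overlap another gene's, on the opposite strand in 8. BLAST+ 2.17.0 found a copy elsewhere of at least 300 bases and 95% identity for 8 of the 38, and the copies held over 1% of the gene's counts in 4.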

Additional observations from a re-analysis of the deposited data

How the results depend on the processing

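Of the 38 genes, none passed edgeR's threshold in any comparison under DESeq2 size factors, with immunoglobulin genes left out, with other filters, with a covariate for erythroid, B cell or cycling-cell markers or Xist, or with only the 6 libraries compared. Of all genes, these settings called 1.73 to 5.08, 2.13 to 18.4 and 1.7 to 14.8% in the 3 comparisons. The lowest shares were those with a B cell or erythroid covariate. A count of 0 of 38 in fits that call so few genes says little about these genes. With a replicate block the count was 0 in each comparison and the medians 0.14, 0.14 and -0.01, with 4.82, 20.6 and 14.6% of all genes called. Same-numbered libraries correlated weakly, between -0.211 and 0.196. Replicate 3 correlated best with the other genotype's replicate 3 in each comparison, at 0.122, 0.162 and 0.16. Replicates 1 and 2 matched their own number only in some. Whether the numbers mark a batch was not tested. DESeq2's own test called 1 gene in kFRA against WT, where it called 24.8% of all genes. On library size alone the counts were 0 for kFRA against DH-LMP2A, 13 for kFRA against WT and 9 for DH-LMP2A against WT. Of all genes, 3.44, 23.1 and 18.1% were called on that scale, in either direction. The medians were then -0.01, 0.34 and 0.34, with all-gene medians of -0.14, 0.17 and 0.33, and the summed levels were 2617 CPM in DH-LMP2A and 2047 in WT. With a B cell marker covariate the medians of kFRA against DH-LMP2A and against WT were 0.01 and -0.11, and with a cycling-cell marker covariate the first was -0.03. The B cell marker sum of every kFRA library lay below that of every other library, so this covariate cannot be cleanly separated from genotype. The cause of these shifts was not tested. Leaving out 1 library at a time gave 0 to 11 genes and medians of 0.06 to 0.30 for kFRA against DH-LMP2A. It gave 0 to 15 genes and 0.09 to 0.29 for kFRA against WT, and 0 genes and -0.05 to 0.05 for DH-LMP2A against WT. The highest counts were those without kFRA replicate 2, where 22.7 and 38.8% of all genes were called. Without that library, further settings chosen after seeing the data gave, for kFRA against DH-LMP2A, 2 genes and a median of -0.05 on library size alone, 11 and 0.28 with DESeq2 size factors, and 11 and 0.29 without immunoglobulin genes. For kFRA against WT they gave 15 and 0.29, 15 and 0.28, and 16 and 0.30. Of all genes, these settings called 21, 22.5 and 22.8% against DH-LMP2A and 31.8, 38.8 and 38.5% against WT. The shares of the 38 called were 5.26, 28.9 and 28.9%, and 39.5, 39.5 and 42.1%. For the 7 genes named by rule, 24 values passed the threshold under an alternative, each in the direction first found. In 47 others, none past the threshold, the sign differed from the first result. The replicate block ended the calls of Rad23b (edgeR adjusted p = 0.0674) and Adrm1 (0.0535). With 3 mice a genotype, an estimate smaller than the half-width of its interval could not reach even an unadjusted p of 0.05. The threshold on the adjusted p asked for more. Psmb5 in kFRA against DH-LMP2A, at 0.73 with a half-width of 0.54, did not pass it.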
